A study of Mus musculus with 7 samples.

Results

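Transcripts of 9 fibroblast growth factor (FGF) genes and FGF receptor genes, matched by symbol among the 55536 genes of the deposited tables, were followed across the cell types of the mouse hippocampus. The 9 genes were Fgf1, Fgf2, Fgf9, Fgf12, Fgf13, Fgf14, Fgfr1, Fgfr2 and Fgfr3. RNA was read from hippocampal nuclei of Arctic48 (Arc) mice, a model of Alzheimer's disease, and of wild-type (WT) mice. The method was split-pool barcoding, in which nuclei receive a combination of barcodes over successive rounds. Mice drank water alone (vehicle, veh) or water with 20 µg/ml of PMX205 (PMX), a cyclic hexapeptide that blocks the complement receptor C5aR1, for 12 weeks by the labels, although the ages of treatment in the study's text span a somewhat shorter time. The nuclei of 1 mouse filled 1 well of the first barcoding round, and this well was the replicate.

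All mice were 10 months old and on the C57BL6/J background. WT-veh and WT-PMX mice carried no transgene, and Arc-veh and Arc-PMX mice were hemizygous for a human amyloid precursor protein (APP) transgene with the Indiana, Swedish and Arctic mutations. Each of the 4 groups had 6 wells of nuclei, with female mice in wells F1, F2 and F3 and male mice in wells M1, M2 and M3. The reporting summary of the study mentions that a WT sample proved to be Arctic and was left out, but it names no well, so every well was kept under its label.

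FGF ligands such as Fgf1, Fgf2 and Fgf9 leave the cell and act on receptor tyrosine kinases, among them Fgfr1, Fgfr2 and Fgfr3, with heparan sulfate chains of the cell surface as a partner. Signalling runs through adaptors and the Ras and MAP kinase cascade, and it induces its own inhibitors, the Sprouty and Spred proteins. Fgf12, Fgf13 and Fgf14 are different: these FGF homologous factors stay inside the cell, do not act as classical ligands of the receptors, and bind the tails of voltage-gated sodium channels in neurons.

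After filtering and the removal of doublets, 43885 nuclei remained, with 1150 to 3111 nuclei and 4389302 to 30001277 transcripts per well. Of these nuclei, 7920 had a barcode that also occurred in another of the 7 sublibraries. Xist ranged from 410 to 1087 CPM (transcripts of a gene, scaled to a common total over the nuclei summed) in the 12 female wells and from 1.51 to 7.20 CPM in the 12 male wells. App in neurons ranged from 448 to 575 CPM in the 12 WT wells and from 546 to 793 CPM in the 12 Arctic wells, so that the ranges overlapped, and how far transcripts of the human transgene were counted as App is not known. Wells F3 and M3 of WT-veh held few oligodendrocytes and fewer than 10 microglia each.

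Cell types are clusters named from marker genes, and neither the 9 genes nor 86 further genes of the FGF pathway were used to form or name them. In all, 17 types had enough wells to be described. Inhibitory neurons that could not be placed further were named by their leading gene, Ano1 or Erbb4. In the text a level is the mean CPM over wells ± SD, and CPM are not compared between genes because transcripts of long genes are captured more often in nuclei.

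The gene models differ widely in size. On the GRCm38 build, Fgf2 spanned chr3:37348346-37410108 on the plus strand and Fgf13 chrX:59062145-59568071 on the minus strand, whereas Fgfr3 spanned 15.4 kb (chr5:33721674-33737068, plus strand). Fgf9 lay at chr14:58070547-58112720 and Fgfr1 at chr8:25513654-25575718, both on the plus strand. Fgf12 lay at chr16:28160098-28753068, Fgf14 at chr14:123977907-124677127 and Fgf1 at chr18:38838673-38929472, all on the minus strand. Fgfr2 spanned 2960.9 kb in this annotation, GENCODE M21 (chr7:130162451-133123350, minus strand), against 104.358 kb in RefSeq. This model overlaps 69 other genes, 30 of them protein-coding, and whether strand was used in counting is not given in the sources used here, so Fgfr2 counts are uncertain. Fgf1 overlaps the coding gene Arhgap26 and Fgf2 overlaps Nudt6.

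Of the secreted ligands, Fgf1 and Fgf2 were both found in astrocytes, and Fgf9 was highest in inhibitory neurons. Fgf1, a ligand that binds all FGF receptors, was at 118 ± 29.5 CPM in astrocytes (SD, n = 24 wells) and 93.0 ± 35.2 CPM in oligodendrocytes (n = 24), the types with the highest means over all wells, which did not differ from each other (adjusted p = 0.142, the permutation test described below). The order of the means depended on genotype: astrocytes were above oligodendrocytes in WT-veh (141 ± 31.6 and 76.7 ± 54.9 CPM) and below them in Arc-veh (97.8 ± 19.6 and 110 ± 20.4 CPM, n = 6 each). It was at 0.678 ± 0.578 CPM in granule neurons of the dentate gyrus (DG) and 1.44 ± 0.841 CPM in CA1 pyramidal neurons (n = 24 each), the principal cells of the hippocampus. Between them, the CGE-like interneurons, named after the caudal ganglionic eminence, held 50.8 ± 24.7 CPM of Fgf1 (n = 24).

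Fgf2, the basic FGF of astrocytes, reached 33.6 ± 16.9 CPM in astrocytes (n = 24) and 21.3 ± 12.7 CPM in choroid plexus epithelium (n = 12). In microglia it was at 41.2 ± 39.1 CPM (n = 21), with values unlike between the groups that were not tested, as described below. Pericytes or mural cells held 37.9 ± 55.7 CPM of Fgf2 and leptomeningeal fibroblasts 29.1 ± 26.1 CPM (n = 13 each). Fgf2 was at 1.06 ± 2.51 CPM in oligodendrocytes and 1.11 ± 0.800 CPM in DG granule neurons. None of the 16 pairs of neighbouring types in the order of Fgf2 differed.

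Fgf9, a ligand made by neurons, was highest in the inhibitory neurons led by Erbb4, at 71.3 ± 29.3 CPM (n = 23), followed by MGE-like interneurons, named after the medial ganglionic eminence, at 33.3 ± 10.6 CPM (n = 24). The step between them was 1.06 ± 0.63 on the log2(CPM + 1) scale (SD over wells that hold both types, permutation test of sign flips, two-sided, adjusted p = 0.00016). The principal neurons lay lower, from 11.8 ± 1.73 CPM in CA3 and 8.95 ± 2.02 CPM in CA1 to 8.28 ± 1.94 CPM in DG. In astrocytes, oligodendrocyte precursors (OPC), microglia and oligodendrocytes the mean of Fgf9 was between 0.171 and 1.11 CPM. By group, the lowest, median and highest wells were 35.8, 60.1 and 130 CPM in WT-veh, 48.6, 68.7 and 122 CPM in WT-PMX, 42.0, 60.3 and 143 CPM in Arc-veh, and 49.9, 87.8 and 102 CPM in Arc-PMX. All 4 groups overlapped.

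The 3 intracellular FGFs each had their own order of neurons. Fgf12 was highest in MGE-like interneurons (3668 ± 390 CPM, n = 24), then in inhibitory neurons led by Ano1 (2573 ± 343 CPM, n = 18) and in CGE-like interneurons (2199 ± 299 CPM, n = 24). The pyramidal neurons of CA1 and CA3 held 1126 ± 123 and 1015 ± 91.3 CPM, and DG granule neurons held 687 ± 79.6 CPM. Of the 16 neighbouring pairs of Fgf12, 9 differed, more than for any other of the 9 genes. In MGE-like interneurons the group medians of Fgf12 were 3768 CPM (3313 to 4051) in WT-veh, 3758 CPM (3300 to 4143) in WT-PMX, 3736 CPM (3233 to 4155) in Arc-veh and 3464 CPM (2651 to 4309) in Arc-PMX, with 6 wells in each group. The 4 groups overlapped there.

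Fgf14, the member best known for spinocerebellar ataxia, differed less among neurons. It ran from 3998 ± 384 CPM in inhibitory neurons led by Erbb4 (n = 23) and 3639 ± 319 CPM in DG granule neurons (n = 24) to 2541 ± 277 CPM in CA1 (n = 24). In inhibitory neurons led by Erbb4 the group medians were 3979 CPM (3494 to 4237) in WT-veh, 4021 CPM (2694 to 4217) in WT-PMX, 4122 CPM (3756 to 4607) in Arc-veh and 4146 CPM (3889 to 4367) in Arc-PMX, and the groups overlapped. Fgf14 was higher in OPC than in astrocytes by 1.12 ± 0.22 on the log2(CPM + 1) scale (adjusted p = 0.00016, the same permutation test, n = 24 wells).

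Fgf13 differed more among neurons. Inhibitory neurons led by Erbb4 held 3816 ± 727 CPM (n = 23), against 812 ± 187 CPM in CGE-like interneurons and 50.3 ± 8.79 CPM in CA1 (n = 24 each). In these Erbb4 neurons the group medians were 3980 CPM (3388 to 5403) in WT-veh, 3647 CPM (3071 to 5480) in WT-PMX, 3641 CPM (2755 to 4638) in Arc-veh and 3619 CPM (3062 to 4223) in Arc-PMX. The groups overlapped, and the fold change of Arc-veh over WT-veh was −0.13 on the log2 scale (SE 0.15). Among excitatory neurons that could not be placed further, the clusters led by Sgcz and by Tshz2 held 333 and 334 CPM of Fgf13 in their summed counts, and the 5 others held 40.6 to 104 CPM.

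The sodium channel partners were also present in glia at levels that could be set against those of neuronal markers. In summed counts, 6 neuronal markers (Rbfox3, Snap25, Syt1, Grin1, Celf4 and Nrgn) stood in OPC at 7.48% of their summed level in neurons, whereas Fgf12 stood at 89.9%, Fgf13 at 75.8% and Fgf14 at 74.9%. In astrocytes the markers stood at 3.46%, Fgf12 at 25.8%, Fgf14 at 35.1% and Fgf13 at 108%. In microglia the markers stood at 7.96%, and Fgf12 at 7.53% and Fgf14 at 8.42%, close to the markers, but Fgf13 at 1422%. This last value pools groups that differ in microglial Fgf13, as given below, and most of the nuclei are from Arctic mice. In oligodendrocytes the markers stood at 4.79%, Fgf14 at 5.28%, Fgf13 at 8.87% and Fgf12 at 12.5%. In endothelial nuclei the markers stood at 52.4%, Fgf12 at 50.3%, Fgf14 at 59.5% and Fgf13 at 90.5%.

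The receptors had their highest levels outside neurons, each in its own pattern. Fgfr3 was the most restricted, with 243 ± 49.5 CPM in astrocytes (n = 24), 33.6 ± 21.8 CPM in ciliated ependymal cells (n = 13) and 8.84 ± 7.02 CPM in OPC (n = 24), and its mean was between 0.141 and 1.12 CPM in the 8 types of neurons. The step from astrocytes to ependymal cells was 3.51 ± 2.05 on the log2(CPM + 1) scale (adjusted p = 0.00216, the same permutation test). A transcript of Fgfr3 was found in 36.5% of astrocyte nuclei and in 0.168% of oligodendrocyte nuclei. In astrocytes the lowest, median and highest wells were 205, 239 and 285 CPM in WT-veh, 200.3, 291 and 324 CPM in WT-PMX, 163, 242 and 310 CPM in Arc-veh, and 145.5, 206 and 270 CPM in Arc-PMX. These ranges overlapped in every pair of groups compared.

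Fgfr1 was highest in astrocytes, at 445 ± 75.6 CPM (n = 24), then in leptomeningeal fibroblasts (277 ± 131 CPM, n = 13), ependymal cells (216 ± 74.6 CPM, n = 13) and choroid plexus (206 ± 43.6 CPM, n = 12). Among neurons CA3 stood out with 127 ± 17.7 CPM, against 62.2 ± 10.7 CPM in CA1 and 22.2 ± 6.89 CPM in DG. A small cluster of excitatory neurons led by Gm43154, not placed further, held 258 CPM of Fgfr1 and 30.9 CPM of Fgf2 in its summed counts, above the 22.1 to 86.6 CPM and 1.36 to 4.62 CPM of the other 6 clusters of that class. By group, astrocyte wells of Fgfr1 had medians of 426 CPM (345 to 477) in WT-veh, 400 CPM (294 to 503) in WT-PMX, 480 CPM (352 to 582) in Arc-veh and 485 CPM (401 to 616) in Arc-PMX, with overlap.

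Fgfr2, with the uncertainty given above, was highest in choroid plexus epithelium (1911 ± 141 CPM, n = 12) and oligodendrocytes (1851 ± 215 CPM, n = 24), whose order differed between the genotypes, then in leptomeningeal fibroblasts (1509 ± 440 CPM, n = 13), and it was at or above 430 CPM in every type. In choroid plexus the 4 WT-veh wells ran from 1833 to 2053 CPM and the 4 Arc-veh wells from 1748 to 2123 CPM.

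**Figure D1:**
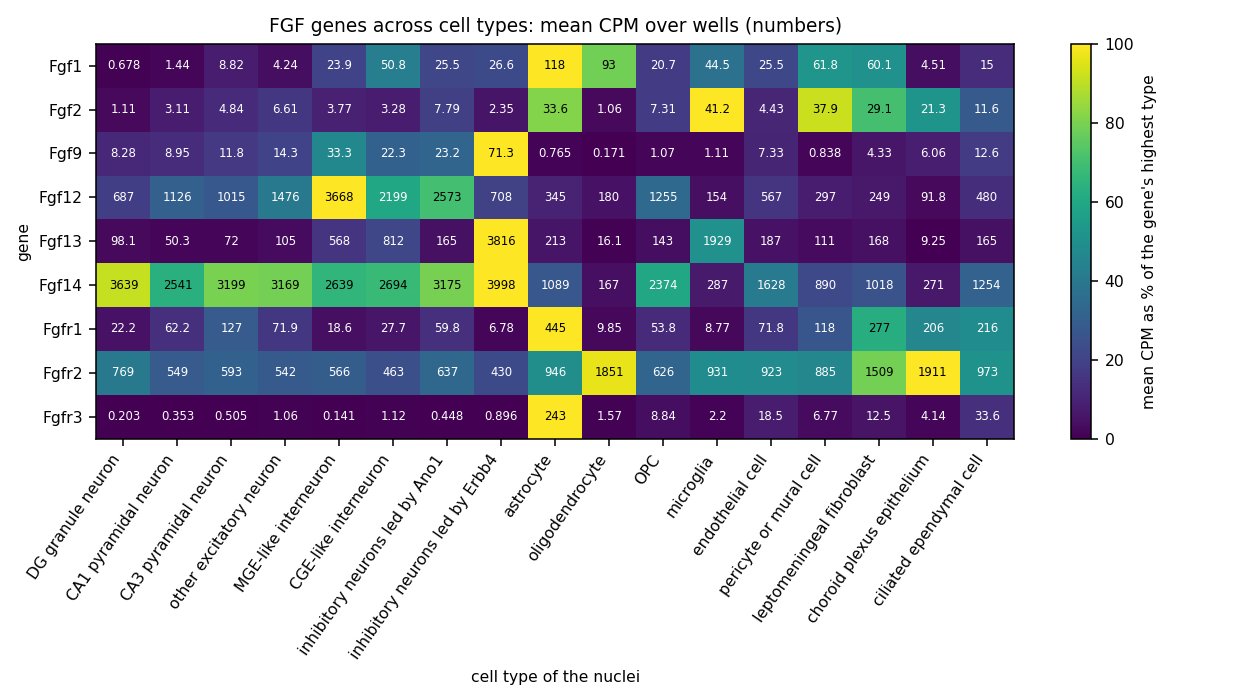
Mean CPM over wells of the 9 genes (rows) in the 17 cell types (columns), printed in each square, with the colour giving the mean as a percentage of the highest type of that gene. Fgf9, Fgf12, Fgf13 and Fgf14 have their highest level in inhibitory neurons, Fgfr1 and Fgfr3 in astrocytes and Fgfr2 in choroid plexus epithelium. The highest means of Fgf1 in astrocytes, Fgf2 in microglia and Fgfr2 in choroid plexus hold over all wells only: Fgf1 was higher in oligodendrocytes in the Arctic groups, and in the WT groups Fgf2 was higher in astrocytes than in microglia and Fgfr2 higher in oligodendrocytes than in choroid plexus.

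Over all 9 genes, 30 of the 144 pairs of types next to each other in the order of levels differed (permutation test of sign flips over wells, adjusted over the pairs). The other neighbours did not differ beyond their spread, among them astrocytes and oligodendrocytes for Fgf1, CA1 and DG for Fgf9, CA3 and the other excitatory neurons for Fgf14, and choroid plexus and oligodendrocytes for Fgfr2. With the WT wells alone, 15 pairs differed, and 19 differed when each nucleus was named by its own highest marker score.

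The genes most like each member over the 17 types, among 11513 genes, were as follows, as a description by Pearson's r of mean log2(CPM + 1), in which all genes share wells and depth. Fgf14 was followed most closely by Unc79 (r = 0.98), Rgs7 (r = 0.97) and Kcnj3 (r = 0.96). For Fgf9 they were Gm36388 and Resp18 (r = 0.96 each) and Tmem130 (r = 0.95), and for Fgfr3 they were Gm6145 (r = 0.97), the astrocyte marker Gfap (r = 0.95) and 2810459M11Rik (r = 0.94). Fgf12 was most like Ddx25 (r = 0.94), then Ptpn5 and Zfp804a (r = 0.93 each). Fgfr2 was most like Neat1 (r = 0.91), Cd82 (r = 0.90) and Syne3 (r = 0.89). Fgfr1 was most like Tnfrsf19 (r = 0.87), then Boc and Per2 (r = 0.86 each). Fgf13 was most like Arl4c (r = 0.87), then Eepd1 and Evl (r = 0.83 each). The patterns of Fgf1 (Orc5, r = 0.85, then Gphn and Tnrc6a, r = 0.77 each) and Fgf2 (Mmgt2, r = 0.82, Akr1b10, r = 0.81, and Map3k14, r = 0.80) were matched less closely.

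The comparison of Arc-veh with WT-veh asked what the amyloid model changes. Fgf13 rose in microglia, Fgf2 rose in astrocytes, and Fgf1 and Fgf13 fell in astrocytes. Of 153 combinations of the 9 genes and 17 types, 94 passed the filter on low counts. Of these, 4 were called at an adjusted p under 0.05 (edgeR quasi-likelihood test on counts summed per well and type, sex as covariate), which is 4.26%, against 1.46% of all genes and types tested. The 4 calls came from astrocytes and microglia, where 12.5% and 11.1% of all genes tested were called, so shares there must be read against those. DESeq2 called 6 of the combinations, for which the share of all genes called is not given here, and 13 had an unadjusted p under 0.05 by edgeR. The filter was passed in 17 types by Fgf12, Fgf14 and Fgfr2, in 14 by Fgf13, in 11 by Fgfr1, in 7 each by Fgf1 and Fgf9, in 3 by Fgf2 and in 1 by Fgfr3.

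**Figure D2:**
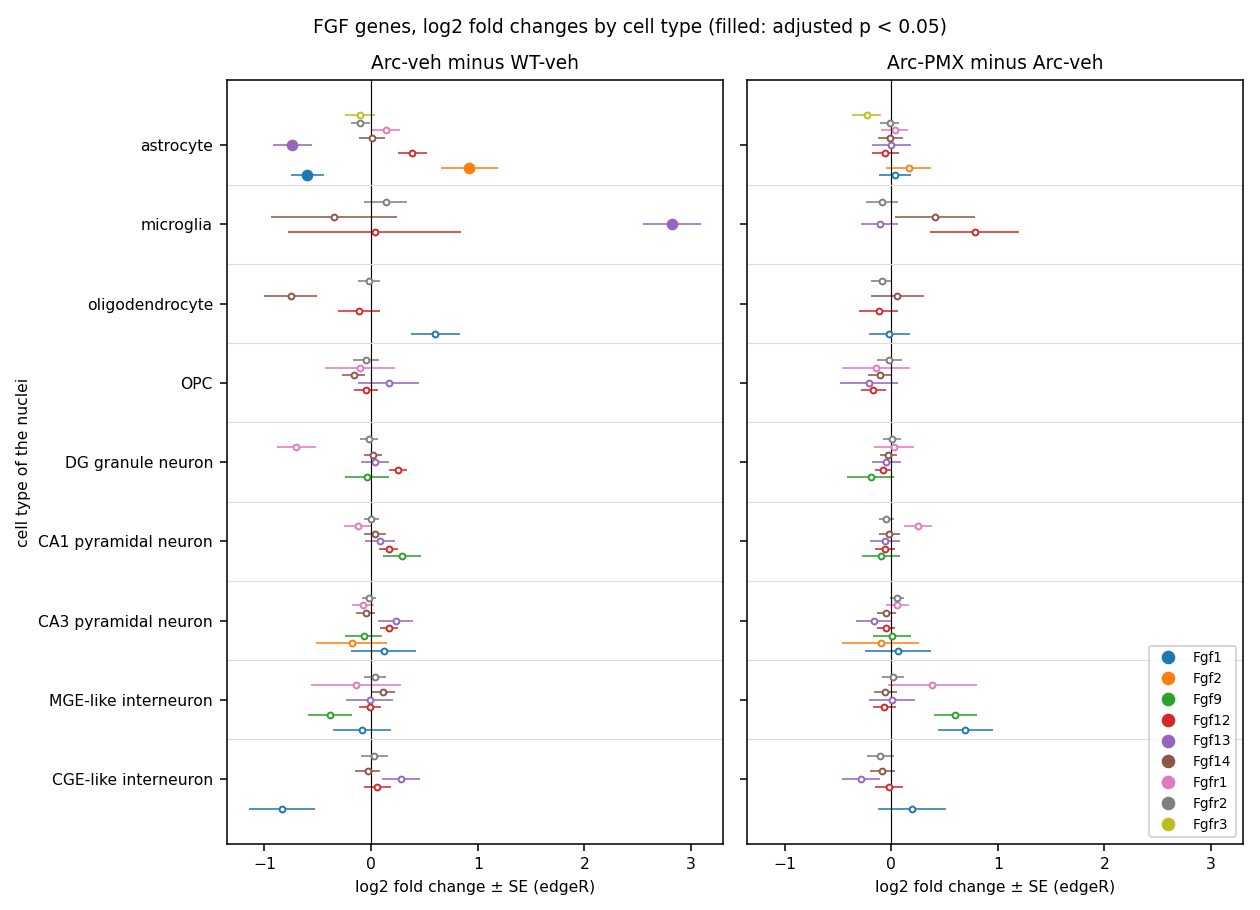
Log2 fold changes ± SE (edgeR, horizontal axis) of the members that passed the filter on low counts in 9 of the cell types (rows), for Arc-veh minus WT-veh on the left and Arc-PMX minus Arc-veh on the right, with filled points where the adjusted p was under 0.05. The filled points on the left are Fgf13 in microglia at 2.82 and Fgf2, Fgf1 and Fgf13 in astrocytes at 0.92, −0.60 and −0.74, and no point on the right is filled.

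Fgf13 in microglia had the largest change. In the 4 WT-veh wells with at least 10 microglial nuclei its level was 447, 497, 243 and 718 CPM, from 47 transcripts in all. In the 6 Arc-veh wells the lowest, median and highest levels were 2585, 3044 and 4025 CPM, from 2993 transcripts. No WT-veh well reached the lowest of Arc-veh, and the Arc-veh mean was 6.57 times as high (3130 ± 490 against 476 ± 195 CPM). The fitted change was 2.82 on the log2 scale (SE 0.27, edgeR, adjusted p = 7.06e-09), in a type where 6.42% of genes were called higher and 4.66% lower, and leaving out single wells moved it between 2.54 and 3.02.

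The treated groups had the same order. The 5 WT-PMX wells held 545, 0, 776, 609 and 415 CPM of Fgf13 in microglia, and the 6 Arc-PMX wells had a lowest, median and highest level of 2400, 2833 and 3658 CPM. These groups did not overlap either, and the ratio of their means was 6.21.

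At least 1 Fgf13 transcript was found in 71.9% of 691 microglial nuclei of Arc-veh (exact binomial 95% interval 68.4 to 75.2%) and 70.0% of 557 of Arc-PMX (66.0 to 73.8%). The share was 22.6% of 133 in WT-veh (15.8 to 30.6%) and 31.8% of 129 in WT-PMX (23.9 to 40.6%). Intervals cover counting error only. Oligodendrocytes, which should hold little Fgf13, had shares of 1.78 to 2.25% in the 4 groups at a median of 908 to 1266 transcripts per nucleus, while microglial medians were 724, 957, 1016 and 1096 in the groups WT-veh and WT-PMX, then Arc-veh and Arc-PMX. After each nucleus was thinned to 500 transcripts, which left out 3, 2, 9 and 9 microglial nuclei, the shares were 16.9%, 17.3%, 59.1% and 56.6%, and those of oligodendrocytes were 0.496 to 1.12%.

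All 8 markers used to name microglia, such as Cx3cr1, had transcripts in these nuclei, and 6 of them were found in at least 10% of the nuclei. The cluster was named from these markers, so their presence is no separate support for the name. The ranges of markers of other cells overlapped between WT-veh and Arc-veh. The summed level of the 6 neuronal markers in microglial wells was 431 CPM (255 to 578) in WT-veh and 404 CPM (208 to 875) in Arc-veh, that of 8 astrocyte markers 375 CPM (255 to 523) and 467 CPM (278 to 843), and that of 8 oligodendrocyte markers 270 CPM (166 to 383) and 254 CPM (138 to 455).

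**Figure D3:**
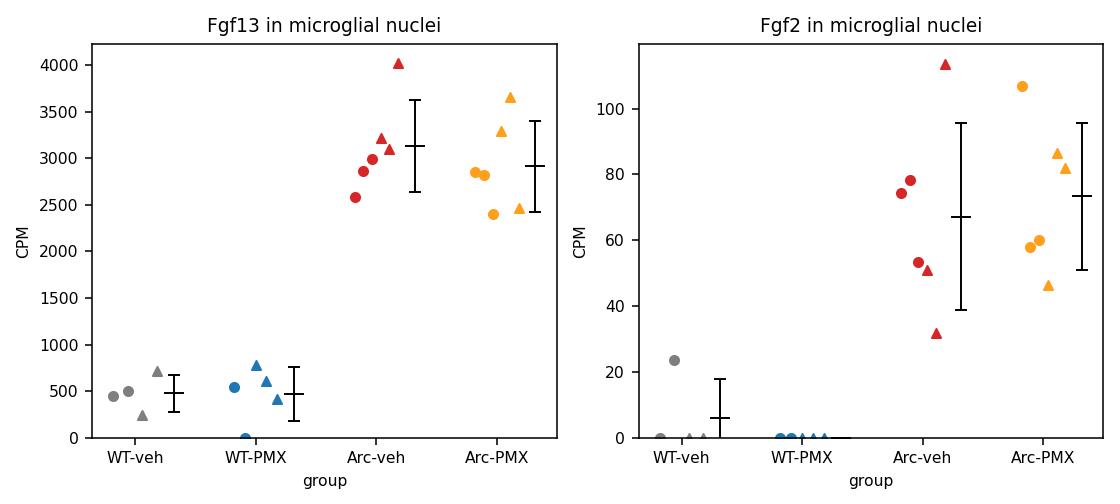
CPM of Fgf13 and Fgf2 in microglial nuclei (vertical axes) by group, with circles for female wells, triangles for male wells and bars for the mean ± SD. For Fgf13 the 12 Arctic wells lie between 2400 and 4025 CPM and the 9 WT wells between 0 and 776 CPM. For Fgf2 the Arctic wells lie between 31.9 and 114 CPM and all but 1 of the WT wells at 0.

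The counts are summed over the gene and do not tell from which of its starts Fgf13 was read. RefSeq gives 4 start sites of Fgf13 in the GRCm38.p6 tables. Windows from 250 bases before to 50 bases after each were searched on both strands for TGANTCA and for GAGGAAGT, a site of the myeloid factor PU.1. TGANTCA is a loose form of the site of AP-1 factors that allows any base at its centre, where the usual site has C or G. TGANTCA occurred in 1 of the 4 windows, as TGAATCA with A at its centre, and GAGGAAGT in none. Over all 32851 windows of the genome, 7.81% held TGANTCA and 3.20% held GAGGAAGT. The window of Fgf2 held neither. The windows differed in base composition, with G or C at 46.3%, 74.3%, 40.3% and 73.0% of bases in Fgf13, from the farthest upstream on, and 62.7% in Fgf2. The window that holds the match, the window at the upstream end of the GENCODE gene model, which is the next to farthest upstream of the RefSeq windows, and that of Fgf2, whose transcripts also differed between groups, are shown from 5′ to 3′, with the match in capitals.
Fgf13, chrX:59166039-59166338, minus strand: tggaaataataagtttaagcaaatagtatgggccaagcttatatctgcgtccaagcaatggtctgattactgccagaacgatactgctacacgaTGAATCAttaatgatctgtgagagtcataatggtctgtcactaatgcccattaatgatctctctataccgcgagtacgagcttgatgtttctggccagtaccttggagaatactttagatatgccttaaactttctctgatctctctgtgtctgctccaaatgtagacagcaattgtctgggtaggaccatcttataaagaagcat
Fgf13, chrX:59567299-59567598, minus strand: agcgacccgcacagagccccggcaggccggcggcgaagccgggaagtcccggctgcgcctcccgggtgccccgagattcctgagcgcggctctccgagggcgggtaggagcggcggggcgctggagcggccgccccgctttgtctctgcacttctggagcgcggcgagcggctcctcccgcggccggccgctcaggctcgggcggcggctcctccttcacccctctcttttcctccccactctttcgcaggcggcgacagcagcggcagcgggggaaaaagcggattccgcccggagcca
Fgf2, chr3:37348403-37348702, plus strand: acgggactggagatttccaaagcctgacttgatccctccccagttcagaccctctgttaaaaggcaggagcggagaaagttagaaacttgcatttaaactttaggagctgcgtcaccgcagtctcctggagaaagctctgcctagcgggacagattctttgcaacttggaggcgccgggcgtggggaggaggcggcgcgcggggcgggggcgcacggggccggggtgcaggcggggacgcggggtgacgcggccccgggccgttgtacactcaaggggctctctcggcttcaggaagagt

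Fgf2 in microglia was too sparse for the filter and was not tested. In WT-veh the 4 wells held 0, 1, 0 and 0 transcripts of Fgf2 and in WT-PMX all 5 wells held 0. In the Arc-veh wells F1 to M3 there were 5, 9, 11, 7, 6 and 24, and in the Arc-PMX wells 32, 6, 3, 7, 7 and 10. Every Arctic well had transcripts, at 31.9 to 114 CPM in Arc-veh and 46.4 to 107 CPM in Arc-PMX. Over the wells of a group, the 62 transcripts of Arc-veh were 7.11 times the rate of the 1 transcript of WT-veh (exact 95% interval 1.23 to 285, counting error only). The rate in Arc-PMX was at least 3.91-fold higher than in WT-PMX, taking 3 transcripts over the group as the limit for 0. Higher Arctic means in microglia were not particular to Fgf2. Fgf1, which fell in astrocytes, also missed the filter in microglia and was not tested there. Under vehicle its microglial mean was 63.5 ± 8.81 CPM over the 6 Arctic wells and 21.9 ± 30.1 CPM over the 4 WT wells. Under PMX205 it was 77.8 ± 16.8 CPM over the 6 Arctic wells and 0 CPM over the 5 WT wells.

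In astrocytes, 8 of the 9 genes passed the filter and 3 were called, 1 higher and 2 lower. Fgf2 had a lowest, median and highest level of 14.3, 24.8 and 36.3 CPM in the 6 WT-veh wells and 37.8, 43.8 and 50.3 CPM in the 6 Arc-veh wells. The groups did not overlap. The change was 0.92 on the log2 scale (SE 0.27, edgeR, adjusted p = 0.0150), where 7.54% of genes tested in astrocytes were called higher. Without well F2 of WT-veh it was 0.78 with an adjusted p of 0.0891, and without well M1 of WT-veh 0.76 with an adjusted p of 0.0858, so the call depends on these wells. In the treated groups Fgf2 had 9.39, 17.7 and 22.9 CPM in WT-PMX and 29.7, 49.1 and 72.5 CPM in Arc-PMX, again without overlap.

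Fgf1 had 98.4, 140 and 175 CPM as the lowest, median and highest astrocyte well of WT-veh and 75.2, 90.8 and 123 CPM in Arc-veh. These ranges overlapped, with 4 of the 6 Arc-veh wells below every WT-veh well. The change was −0.60 on the log2 scale (SE 0.15, edgeR, adjusted p = 0.00548), a level 0.693 times that of WT-veh, where 4.91% of genes tested in astrocytes were called lower. In WT-PMX the wells had 117, 142 and 147 CPM and in Arc-PMX 68.0, 97.7 and 127 CPM, which overlapped.

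Fgf13, which rose in microglia, fell in astrocytes. Its lowest, median and highest wells were 241, 278 and 295 CPM in WT-veh, against 129, 159 and 239 CPM in Arc-veh, without overlap but with the highest Arc-veh well close to the lowest of WT-veh. The change was −0.74 on the log2 scale (SE 0.19, edgeR, adjusted p = 0.00452), and it was −0.57 with an adjusted p of 0.0797 when doublets were kept. In WT-PMX the wells had 153, 243 and 352 CPM and in Arc-PMX 105, 161 and 241 CPM, with overlap. The summed level of the 6 neuronal markers in astrocytes moved the same way, from 284 CPM (240 to 389) in WT-veh to 168 CPM (134 to 195) in Arc-veh, with 246 CPM (147 to 360) in WT-PMX and 201 CPM (127 to 293) in Arc-PMX, and its part in the change of Fgf13 was not tested. Microglial markers in astrocytes were at 47.1 CPM (29.5 to 65.2) in WT-veh and 54.1 CPM (42.5 to 63.7) in Arc-veh, and oligodendrocyte markers at 109 CPM (57.1 to 185) and 80.0 CPM (47.6 to 105).

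Fgf12 in astrocytes missed the threshold. Its lowest, median and highest wells were 251, 291 and 384 CPM in WT-veh, against 356, 405 and 464 CPM in Arc-veh, with 5 of the 6 Arc-veh wells above every WT-veh well. The change was 0.38 (SE 0.14, edgeR, adjusted p = 0.0558), and DESeq2 gave 0.40 with an adjusted p of 0.0395. The receptors and Fgf14 in astrocytes had changes of 0.14 (SE 0.13) for Fgfr1, −0.10 (SE 0.09) for Fgfr2, −0.11 (SE 0.14) for Fgfr3 and 0.01 (SE 0.12) for Fgf14, none past the threshold.

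**Figure D4:**
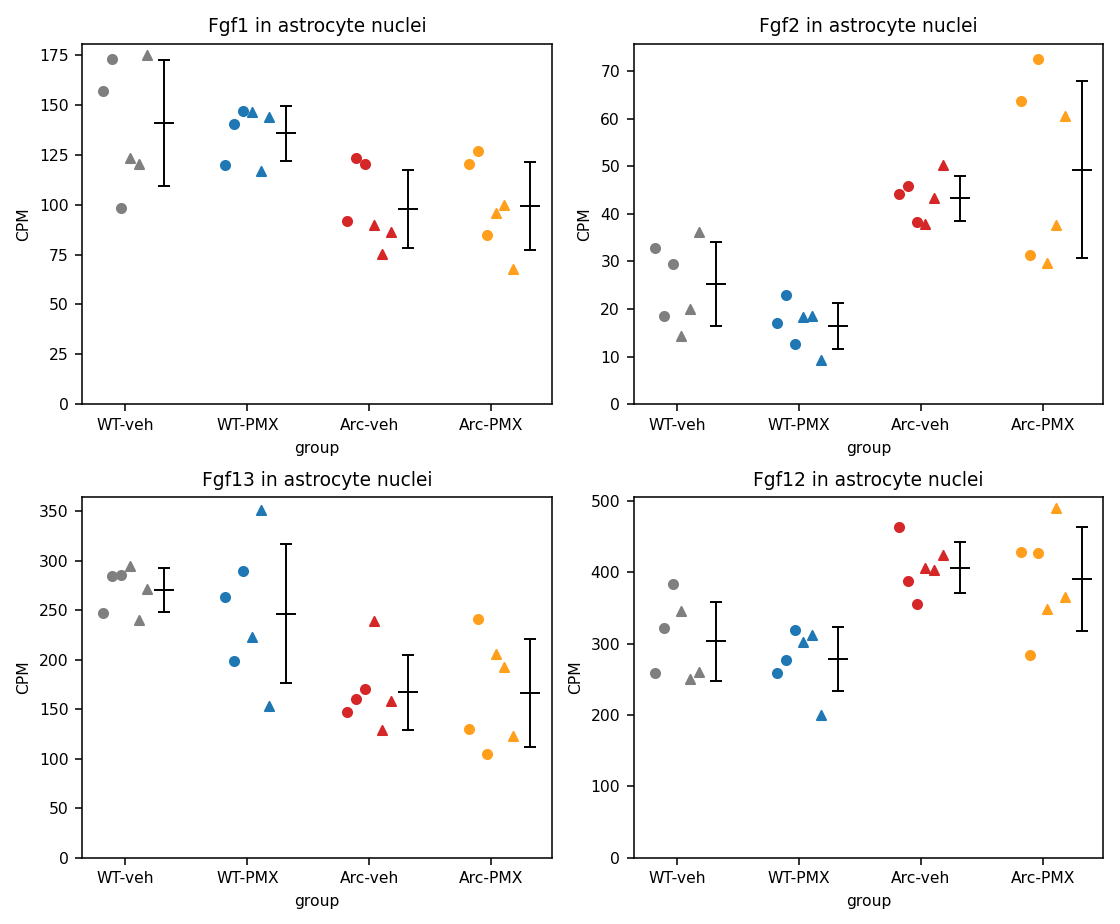
CPM of Fgf1, Fgf2, Fgf13 and Fgf12 in astrocyte nuclei (vertical axes) by group, with circles for female wells, triangles for male wells and bars for the mean ± SD. Fgf2 lies at 9.39 to 36.3 CPM in the 12 WT wells and at 29.7 to 72.5 CPM in the 12 Arctic wells, and Fgf1 and Fgf13 lie lower in Arc-veh than in WT-veh.

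The astrocytes of the groups came from different clusters: most Arc-veh nuclei were in a cluster led by Gfap, the filament protein of reactive astrocytes, and most WT-veh nuclei were not. As a description with no test, the values that follow are CPM of summed counts in the order WT-veh and WT-PMX, then Arc-veh and Arc-PMX. In the largest cluster (2085 nuclei) Fgf1 was at 153, 134, 152 and 151 and Fgf13 at 297, 296, 271 and 309, so that the genotypes were close for both genes. In the Gfap cluster (1735 nuclei) Fgf1 was at 155, 120, 79.0 and 89.2 and Fgf13 at 181, 181, 115 and 93.1, both lower in Arctic nuclei. In the remaining cluster (1624 nuclei) Fgf1 was at 129, 121, 96.6 and 58.9 and Fgf13 at 256, 229, 299 and 286, the first lower and the second higher in Arctic nuclei. The lower levels of Arctic astrocytes as a whole were thus not found within every cluster. Fgf2 was at 14.5, 10.97, 24.9 and 23.6 in the largest cluster, at 41.4, 64.9, 48.8 and 62.9 in the Gfap cluster and at 28.6, 15.8, 43.9 and 29.5 in the remaining one. In the Gfap cluster Arc-PMX was thus not above WT-PMX. The WT-veh values of the Gfap cluster rest on 30 transcripts of Fgf1, 35 of Fgf13 and 8 of Fgf2. The part of the cluster makeup in the changes of Fgf1, Fgf2 and Fgf13 was not tested.

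Outside astrocytes and microglia no member was called by edgeR with the filter on low counts. Without that filter edgeR called 6 more: Fgfr1 (adjusted p = 0.000781), Fgf2 (0.00313) and Fgf13 (0.0194) in the other excitatory neurons, Fgfr1 in DG granule neurons (0.0300), Fgf14 in oligodendrocytes (0.0412) and Fgf14 in choroid plexus (0.0140). The share of all genes called without the filter is not given here, so these calls have no background beside them. With nuclei named by their highest marker score Fgf1 in oligodendrocytes was also called (edgeR, adjusted p = 0.0389). With the filter, the nearest to a call was Fgfr1 in DG granule neurons, with a lowest, median and highest well of 22.2, 28.7 and 31.7 CPM in WT-veh, against 11.1, 16.5 and 31.1 CPM in Arc-veh. Of the Arc-veh wells, 5 of 6 lay below every WT-veh well, and well F1 lay among them. The change was −0.70 (SE 0.18, edgeR, adjusted p = 0.114), with an adjusted p of 0.0440 by DESeq2 and 0.0271 without well F1 of Arc-veh. Fgfr1 had a change of −0.65 in the other excitatory neurons (SE 0.18, edgeR, adjusted p = 0.208), where Fgf2 had −1.36 (SE 0.43, edgeR, adjusted p = 0.254). In oligodendrocytes Fgf1 had 0.60 (SE 0.23, edgeR, adjusted p = 0.206) and Fgf14 −0.75 (SE 0.25, edgeR, adjusted p = 0.118). Over all 94 tested combinations the median change was −0.0048.

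The comparisons of PMX205 with vehicle asked whether blocking C5aR1 moves these genes. No member was called in either genotype. Of 85 tested combinations in 15 types, Arc-PMX against Arc-veh gave 0 calls by edgeR, 0 by DESeq2 and 2 at an unadjusted p under 0.05, where 0.00349% of all genes tested were called. These were Fgf1 (0.70, SE 0.26) and Fgf9 (0.60, SE 0.20) in MGE-like interneurons, both with an adjusted p of 0.99975. WT-PMX against WT-veh gave 0 calls among 87 by edgeR and 0 by DESeq2, with 3 at an unadjusted p under 0.05, and 0% of all genes were called. For the effect of PMX205 in Arctic minus that in WT mice, 82 combinations gave 0 calls by edgeR and 0 by DESeq2, with 4 at an unadjusted p under 0.05, and 0% of all genes were called.

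None of the genes called between Arc-veh and WT-veh was called between Arc-PMX and Arc-veh. The change of Arc-PMX from Arc-veh was −0.11 (SE 0.17) for Fgf13 in microglia, and in astrocytes 0.16 (SE 0.21) for Fgf2, 0.04 (SE 0.15) for Fgf1 and 0.0016 (SE 0.18) for Fgf13. The same genes changed in WT-PMX from WT-veh by 0.29 (SE 0.33), −0.36 (SE 0.31), −0.10 (SE 0.15) and −0.12 (SE 0.18). These comparisons share the vehicle wells with that of the genotypes.

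Of the 86 further genes in 6 lists, 67 were tested, in 571 combinations with types, and in Arc-veh against WT-veh 12 were called, 7 higher and 5 lower (2.10%, against 1.46% of all genes and types). Of these calls, 8 were in astrocytes, where 19.0% of the 42 pathway genes tested and 12.5% of all genes tested were called. The list of extracellular carriers and heparan sulfate genes had 5 higher and 2 lower of 193 combinations. The adaptors and kinases had 1 higher and 1 lower of 189, the other receptors and co-receptors 1 higher of 31, and the feedback inhibitors and target genes 2 lower of 79. The other ligands (11 combinations) and the sodium channel subunits that partner with Fgf12, Fgf13 and Fgf14 (68 combinations) had 0 calls.

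Sulf1 and Sulf2, the enzymes that remove 6-O sulfates from heparan sulfate outside the cell, rose in astrocytes. Sulf1 ranged from 9.84 to 54.4 CPM in WT-veh and from 279 to 423 CPM in Arc-veh. The 6 Arc-veh wells were all higher, with a change of 3.61 (SE 0.26, edgeR, adjusted p = 1.3e-13), and WT-PMX and Arc-PMX ranged from 12.6 to 47.6 CPM and from 274 to 641 CPM. Sulf2 ranged from 10.9 to 35.4 CPM in WT-veh and from 85.6 to 210 CPM in Arc-veh, with a change of 2.53 (SE 0.27, edgeR, adjusted p = 3.87e-09). It ranged from 28.2 to 78.7 CPM in WT-PMX and from 68.0 to 165 CPM in Arc-PMX, which overlapped.

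Gpc5 and Gpc6, glypicans that carry heparan sulfate on the cell surface, fell in astrocytes. Gpc5 had 12583 ± 1053 CPM in WT-veh, against 7713 ± 945 CPM in Arc-veh (SD, n = 6 each), a change of −0.75 (SE 0.09, edgeR, adjusted p = 1.37e-07). Gpc6 had 1180 ± 124 CPM and 807 ± 51.8 CPM, a change of −0.59 (SE 0.10, edgeR, adjusted p = 3.49e-05). For neither gene did the wells of WT-veh and Arc-veh overlap. Gpc5 was among the leading genes of the largest and the remaining astrocyte cluster, but not of the Gfap cluster. As given above, most Arc-veh astrocyte nuclei were in the Gfap cluster and most WT-veh nuclei were not. The part of the cluster makeup in the changes of the pathway genes called in astrocytes, among them Sulf1, Sulf2, Gpc5 and Gpc6, was not tested. In CA1 pyramidal neurons Gpc6 moved the other way: it rose from 90.6 ± 20.6 CPM in WT-veh to 180 ± 28.4 CPM in Arc-veh (0.98, SE 0.15, edgeR, adjusted p = 0.00381), in a type where 0.0388% of genes were called, 0.0291% higher and 0.00969% lower. Gpc6 in CA1 was at 97.9 ± 20.4 CPM in WT-PMX and 118 ± 26.2 CPM in Arc-PMX. The difference of Arc-PMX from Arc-veh was not called with the filter on low counts. Without that filter it was −0.60 (edgeR, adjusted p = 0.000613), a setting for which no share of all genes called is given here.

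**Figure D5:**
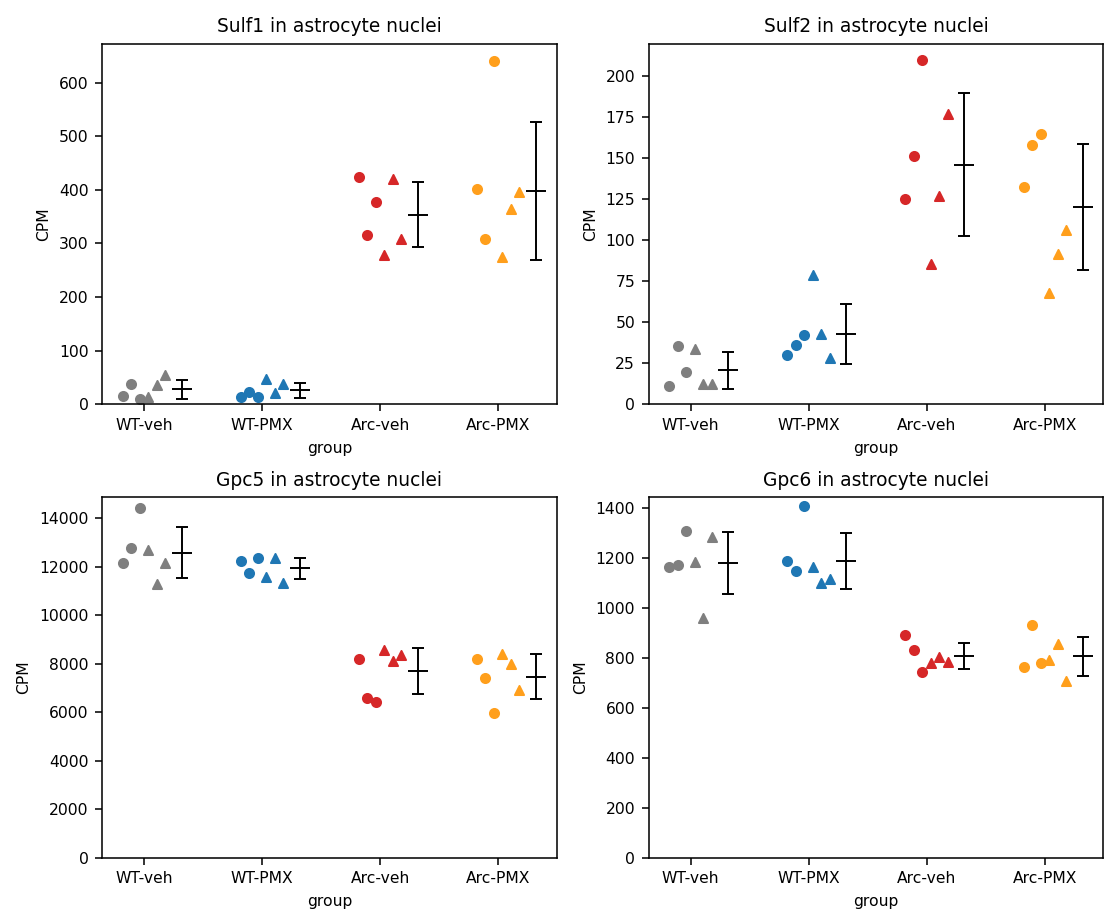
CPM of Sulf1, Sulf2, Gpc5 and Gpc6 in astrocyte nuclei (vertical axes) by group, with circles for female wells, triangles for male wells and bars for the mean ± SD. The Arc-veh wells of Sulf1 and Sulf2 lie above all WT-veh wells, at 279 to 423 and 85.6 to 210 CPM, and those of Gpc5 and Gpc6 lie below them.

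The other 7 calls, named after their values were seen, had larger adjusted p-values. In astrocytes the decoy receptor Fgfrl1 rose by 1.01 and the docking protein Gab1 by 0.46, while the transcription factor Etv4 changed by −0.77 and the Ras pathway inhibitor Spred2 by −0.49 (edgeR, adjusted p from 0.0129 to 0.0272). Of these, only Etv4 had overlapping wells of WT-veh and Arc-veh. Fgfrl1 was at 18.2 ± 10.9 CPM in WT-veh, but 33.8 ± 17.2 CPM in WT-PMX and 39.8 ± 17.7 CPM in Arc-PMX. Gab1 was at 150 ± 28.8, 174 ± 35.5 and 207 ± 30.1 CPM in these groups. For Etv4 and Spred2, WT-PMX (117 ± 43.3 and 181 ± 19.4 CPM) was near WT-veh (118 ± 34.4 and 187 ± 21.5 CPM). Gab1 and Spred2 in astrocytes were not called when the filter on low counts was left out. Gab1 in microglia changed the opposite way from Gab1 in astrocytes, by −1.04 (edgeR, adjusted p = 0.0197), and it too was not called without that filter. In oligodendrocytes Ndst1, an enzyme that sulfates heparan, rose by 1.26 and Sulf2 by 0.73 (adjusted p = 0.0110 and 0.0207), where 2.79% of genes were called, 2.21% higher and 0.58% lower. The 8 tested feedback inhibitors and target genes of astrocytes had a median change of −0.40, against 0.0084 over all genes tested in astrocytes. The 14 carriers and heparan sulfate genes tested there had a median of 0.08. The feedback and target list was also below the median of all genes in other types. It had −0.64 over 3 genes in oligodendrocytes, −0.19 over 7 in OPC, −0.10 over 10 in CA1 and −0.07 over 3 in microglia. Low medians were not particular to this list. The other receptors and co-receptors had −0.43 over 3 genes in astrocytes and −0.50 over 2 in OPC. In microglia the carriers had −0.27 over 3 genes and the adaptors and kinases −0.145 over 7. The carriers were above the median of all genes in OPC (0.08) and CA1 (0.10). None of these medians was tested. Under PMX205 none of the further genes was called by edgeR with the filter on low counts in either genotype.

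In the single-cell wells, cells selected on CD11b, a surface protein of microglia, were pooled from several mice each, and microglia were picked by their marker score. This comparison was chosen after the data had been seen. Fgf13 was at 822, 1355, 650 and 344 CPM in the 4 WT-veh wells with at least 10 such cells and at 3912, 1779, 3246 and 1352 CPM in the 4 Arc-veh wells. The highest WT-veh well and the lowest Arc-veh well nearly coincided. The means were 792 ± 424 and 2572 ± 1207 CPM, and the difference on the log2(CPM + 50) scale was 1.66 (two-sided exact permutation test, p = 0.0571, n = 4 each, where the smallest possible p is 0.0286). Arc-PMX wells had 2190 ± 401 CPM (exact permutation p = 0.743 against Arc-veh, n = 4), and WT-PMX wells 508 ± 317 CPM (exact permutation p = 0.400 against WT-veh, n = 3). Fgf2 was at 44.0 ± 55.3 CPM in WT-veh, against 40.7 ± 34.5 CPM in Arc-veh there, in WT-veh from 1 transcript in each of 2 wells (exact permutation p = 0.829, n = 4 each). None of the 6 comparisons of Fgf13 and Fgf2 in these cells had a p under 0.05 before adjustment.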

How the data were processed

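RNA of hippocampal nuclei was measured in 24 wells, 6 per group, with group, sex and number from the deposited sample sheet. The deposited values are raw transcript counts per barcode and gene, which the authors produced with split-pipe (Parse) against mm10, and no barcodes had been filtered out. Whether strand was used is not given in the sources used here. The 55536 gene IDs were matched to GENCODE M21 (55450 with the same version). Following the filters of the study's methods, nuclei needed more than 300 and fewer than 50000 transcripts, more than 400 genes and under 1% mitochondrial transcripts. Scrublet in scanpy 1.11.5 removed 1253 doublets of 45138 nuclei (score above 0.25). Clusters (leidenalg 0.10.2, resolution 1.5, 2000 variable genes without any FGF pathway gene) were named from marker lists, under naming rules written once the clusters were known, and 5 of 37 stayed unnamed (3774 nuclei). The members, gene lists and tests were chosen with earlier results of these data known.

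Counts were summed per well and type (at least 10 nuclei) and tested with edgeR 4.0.16 in R 4.3.3 (TMM, filterByExpr by group, glmQLFTest, a single fit of the 4 groups with a sex term), with Benjamini-Hochberg adjustment over all genes of a type and contrast at 0.05, where each group had at least 3 wells. Neighbouring types were compared by sign flips with 100000 resamples on log2(CPM + 1), of which the smallest raw p was 1e-05. Each well held 1 mouse, so p-values measure the spread between mice. The study's own test treats nuclei as replicates, so sums per well were used instead. Thinned shares, the ratio of Fgf2 counts and the CD11b-selected cells were added after seeing the data. The script was tested on simulated counts. Named were the 9 members in every type, with values by well in the highest type and wherever called, the 5 further pathway genes with the smallest adjusted p per contrast, and the 3 most alike genes per member. DESeq2 1.42.0 and other settings were alternatives. Promoter sequences are from RefSeq (GRCm38.p6): 7 of the 9 genes had a window.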

Additional observations from a re-analysis of the deposited data

Results flagged for a closer look

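Wells of a group were searched for a single value far from the rest, in each member's highest cell type and wherever a member was called. In 5 of 42 groups of wells such a value was found, and chance alone gives about 1 in 20. Fgf9 in inhibitory neurons led by Erbb4 gave a high well in each of 3 groups: M2 of WT-veh at 130 CPM, M3 of WT-PMX at 122 CPM and M1 of Arc-veh at 143 CPM. These 3 wells held 30, 20 and 23 transcripts of Fgf9 in that type. Fgf14 in the same neurons was low in well F3 of WT-PMX, at 2694 CPM, with the other wells of the group at 3720 to 4217 CPM. Fgf13 in astrocytes was high in well M1 of Arc-veh, at 239 CPM, which lies just below the lowest WT-veh well. Without that well the change of Fgf13 from WT-veh kept its direction and its call.

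Fgf13 was also found in a preparation that the comparisons of nuclei do not use. In the CD11b-selected whole cells, the mean over the 4 Arc-veh wells was 2572 CPM and that over the 4 WT-veh wells 792 CPM.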

How the results depend on the processing

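Leaving out the filter on low counts changed the counts most. For the 9 genes it gave 10 calls in place of 4 for Arc-veh against WT-veh and 1 in place of 0 for WT-PMX against WT-veh (Fgf13 in ciliated ependymal cells). For the other pathway genes it gave 25 in place of 12 for Arc-veh against WT-veh. Gab1 in astrocytes and microglia and Spred2 in astrocytes were among the 12 but not among the 25. Leaving out the filter also gave, in place of 0, 3 for Arc-PMX against Arc-veh (Gpc6 in CA1, and Hs6st3 and Gpc5 in inhibitory neurons led by Erbb4), 3 for WT-PMX against WT-veh and 4 for the difference of effects. Shares of all genes called without the filter are not given here, so these counts have no background beside them. Naming nuclei by their highest marker score gave 1 further gene for Arc-PMX against Arc-veh, also with no such share. The order of levels had 19 neighbouring pairs that differed with that naming and 15 with WT wells alone, in place of 30, where fewer wells enter. Leaving out single wells gave 3 to 5 calls among the 9 genes and 8 to 14 among the others. With the replicate number as a block in place of sex, the calls for Arc-veh against WT-veh were 5 and 11. Pairing by number is not stated. In DG, CA1, astrocyte and oligodendrocyte nuclei, same-numbered wells had median correlations of 0.0917, 0.0926, 0.0673 and 0.068. Wells of another number and the same sex had 0.063, 0.0682, 0.0382 and 0.0245. In DG 17 of 36 same-numbered pairs were over 0.1, and 11, 9, 9 and 11 of 24 wells correlated best with their own number in these types. Whether same-numbered wells share more than a number was not tested. Fgf1, Fgf2, Fgf12 and Fgf13 in astrocytes, Fgf1 in oligodendrocytes, Fgf13 in microglia and Fgfr1 in DG were followed one by one in all contrasts. Of 1195 settings, 1176 kept their side of the threshold, 16 passed it newly and 3 lost it. The 3 were of Fgf2 and Fgf13 in astrocytes as given above, and no called value changed direction. All of these shifts were in Arc-veh against WT-veh. In the other contrasts the smallest adjusted p was 0.726 (edgeR), so settings there were unlikely to change side. In Arc-veh against WT-veh, Fgf12 in astrocytes kept its side in 5 of 7 settings without a sublibrary. It did so in 18 of 24 without a well and in 8 of 12 others. Fgf1 in astrocytes stayed between −0.65 and −0.53 with single wells left out. The cause of these shifts was not tested. Depth limits Fgf13 in microglia of WT mice, with 47 and 89 Fgf13 transcripts in WT-veh and WT-PMX.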
